A study of Caenorhabditis elegans with 16 samples.

Results

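The genes described here encode the core of the cullin ligase through which the auxin-inducible degron works in the worm and of a related ligase: *skr-1*, *skr-2*, *cul-1*, *cul-2*, *rbx-1*, *elc-1* and *elb-1*. They were listed by name with no threshold on a measured value, though with earlier results of these data known, and are 7 of the 42048 genes in the count table. All 7 passed the filter on low counts that left 11776 genes to test. Whole adults of *Caenorhabditis elegans* were used for RNA sequencing in 16 libraries, with 4 biological replicates for every combination of strain and plate. At 18 to 24 h post L4, N2 worms (the wild-type strain) and *syp-2::AID* worms spent 4 h either on 4 mM auxin or on control plates with none. The *syp-2::AID* worms, called degron worms, carry the degron tag on SYP-2, a protein of the synaptonemal complex that holds paired meiotic chromosomes together, and are homozygous for a transgene that makes TIR1 from the *sun-1* promoter, in the germline. N2 worms have neither the tag nor TIR1, so tag, transgene and strain history cannot be told apart in a comparison of strains. It is not stated whether solvent was added to the control plates.

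A cullin is a scaffold. At its far end it holds the RING protein RBX1, which brings the ubiquitin-charged enzyme, and at its near end an adaptor that holds the receptor for the substrate. CUL-1 uses a Skp1-related adaptor, SKR-1 in most known worm complexes, and F-box proteins as receptors. TIR1 is a plant F-box protein and works in the worm only because it joins this host ligase, so the degron borrows SKR-1, CUL-1 and RBX-1. CUL-2 also uses RBX-1, but its adaptor is elongin C (ELC-1) with elongin B (ELB-1), and TIR1 does not work through it. SKR-1 and SKR-2 have in addition been described as structural proteins of the synaptonemal complex itself. No sequences of these genes were used here.

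Total counts ran from 13964761 to 18741524 per library, of which the 7 genes together made up 0.0847% to 0.110%. Among them, 2 treated degron libraries, replicates 3 and 4, were unlike the other 14. Spearman's rho between exon length and a gene's deviation was -0.54 and -0.62 in them, against 0.0508 to 0.284 in the others, and genes named *rpl* or *rps*, which encode ribosomal proteins, took 18.7% and 18.8% of the counts, against 11.3% to 15.2%. Results are therefore given with and without this pair. The degron acts on protein, so the *syp-2* transcript does not check the labels. The *syp-2* transcript was at 24.3 to 28.3 CPM (counts scaled to a common library total) in treated and at 22.3 to 27.0 CPM in untreated degron worms, and differed by 0.02 on the log2 scale (adjusted p = 0.917, edgeR). All 6 germline markers were detected in every group. Their summed level was 1569 to 2123 CPM in 14 libraries and 1453 and 1273 CPM in treated degron replicates 3 and 4. With auxin in degron worms the marker *gld-1* was at -0.51 on the log2 scale (adjusted p = 0.194, edgeR), and at 0.02 without this pair. The other markers ran from -0.09 for *glh-1* to 0.15 for *him-3*. In whole-worm RNA, fewer cells of a type and less RNA per cell cannot be told apart.

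Per kilobase of exon, the transcripts of the adaptor *skr-2*, the adaptor *skr-1* and the RING gene *rbx-1* stood highest, at means over 16 libraries of 261.2, 244.7 and 227.5 CPM per kb. *elb-1* followed at 107.3, then *cul-2* at 67.5 and *cul-1* at 66.5, and *elc-1* was last at 12.2 CPM per kb. Read against all tested genes with a length, *skr-2* stood at percentile 96.1 and *elc-1* at percentile 52.7. Thus the transcript of elongin C was far below that of its partner elongin B on this scale. Part of that gap comes from dividing by annotated exon length, 1819 bases for *elc-1* and 521 for *elb-1*. Before that division their means were 22.1 and 55.9 CPM. *skr-2* and *skr-1* overlapped in all 4 groups and so did the cullins *cul-1* and *cul-2*, while *elb-1* was separate from its neighbours above and below in each group. *rbx-1* overlapped *skr-1* in 3 groups and lay below it in auxin-treated N2 worms. In auxin-treated degron worms its mean of 238.7 CPM per kb passed that of *skr-1*, 225.9, within the spread.

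Most of these genes were steadier than the median tested gene, in a comparison not matched for level. The SD of log2 CPM over the 16 libraries was 0.090 for *skr-1*, at percentile 1.84 of all tested genes, 0.12 for *skr-2*, 0.17 for *rbx-1* and for *cul-1*, 0.22 for *elb-1*, 0.25 for *cul-2* and 0.35 for *elc-1*, against a median of 0.32 over all genes. Only *elc-1*, the gene with the fewest counts (151 to 461 per library), was above that median, at percentile 56.1. The others stood at percentiles 86.0 to 96.1 of level per kilobase, and *cul-2* was at percentile 35.6 of spread. The plot of levels by library shows the same spread.

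**Figure D1:**
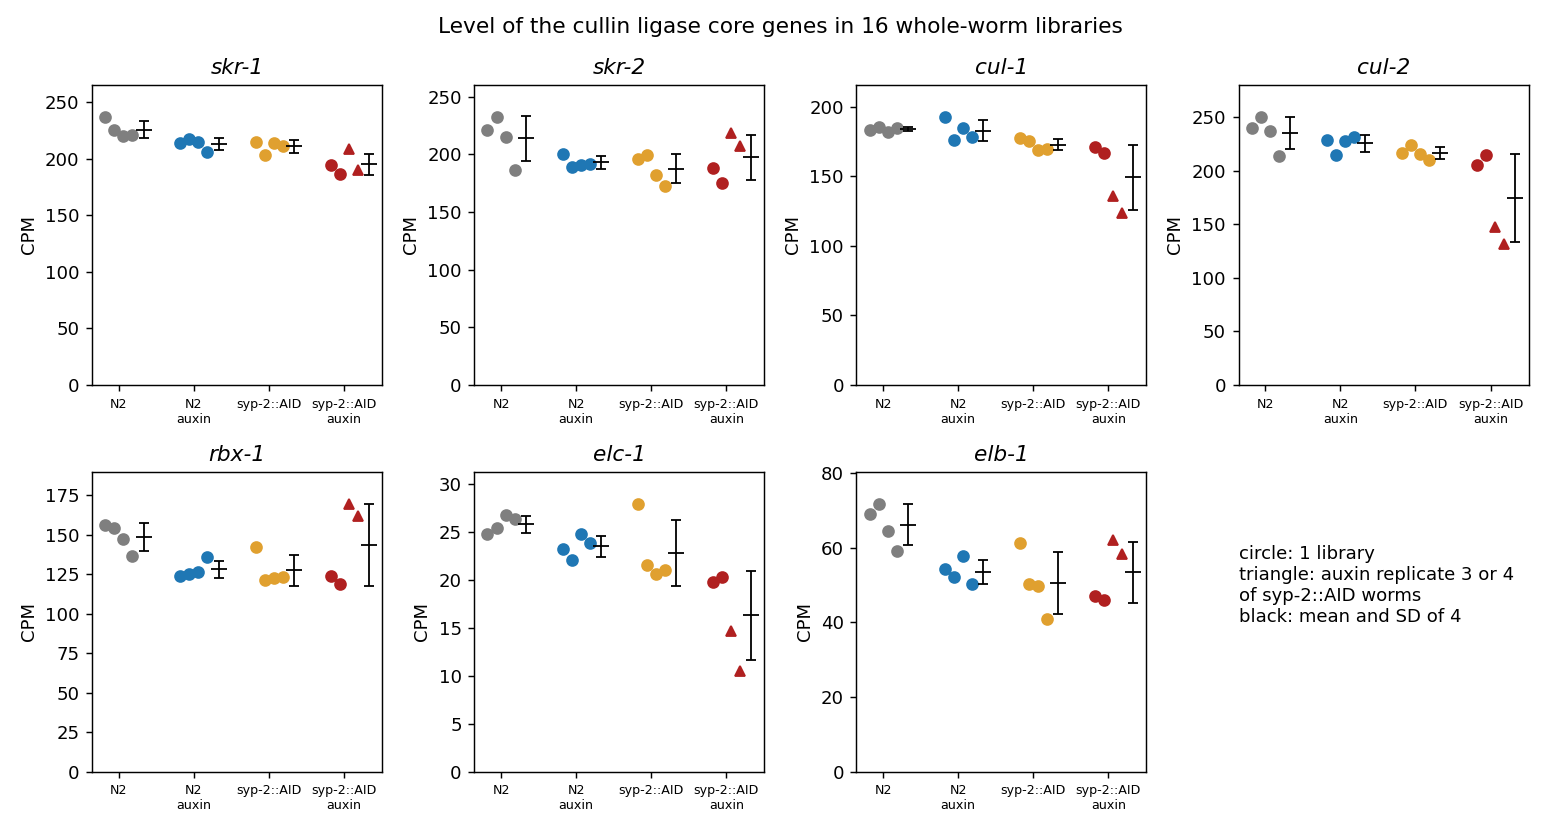
Level of each of the 7 ligase genes in CPM (vertical axis, starting at 0) in the 4 groups. Circles and triangles are single libraries, triangles marking treated replicates 3 and 4 of degron (*syp-2::AID*) worms, and black bars give mean and SD of 4 libraries. The triangles lie below the other libraries for *cul-1*, *cul-2* and *elc-1* and above their group's circles for *skr-2*, *rbx-1* and *elb-1*.

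Did the transcripts of these ligases change when the degron was used? On auxin against control plates, none of the 7 genes passed the threshold (adjusted p under 0.05, edgeR) in degron worms, where 7.20% of all tested genes did. The log2 fold changes ran from -0.48 for *elc-1* to 0.17 for *rbx-1*, with a median of -0.11 against 0.03 over all genes. *skr-1*, *cul-1* and *rbx-1*, whose products the degron borrows, were at -0.11, -0.21 and 0.17, while *elc-1* belongs to the CUL-2 ligase. Unadjusted p was under 0.05 for 3 genes of the 7, and for 30.0% of all genes. DESeq2 called *skr-1* and *elc-1* (11.4% of all genes) and limma-voom called none of them (7.37%).

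Auxin plates alone, in N2 worms, gave a call for none of the 7 genes, against 5.43% of all tested genes. All 7 had negative log2 fold changes, from -0.30 for *elb-1* to -0.01 for *cul-1*, with a median of -0.14 against 0.01 over all genes. Unadjusted p was under 0.05 for 1 gene (18.5% of all genes), and neither DESeq2 (7.79%) nor limma-voom (4.82%) called any of the 7.

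The test of the difference between these responses called none of the 7, and 0.0170% of all genes. Unadjusted p was under 0.05 for *rbx-1* and *elb-1* (17.6% of all genes), and DESeq2 (1.11%) and limma-voom (0 genes of any kind) called none of the 7. The estimates were 0.39 for *rbx-1*, with a 95% interval from 0.07 to 0.70, and 0.38 for *elb-1*, from 0.02 to 0.74. Without the pair of treated degron libraries set apart above, *rbx-1* was at 0.15, with an interval from -0.06 to 0.36. There *elb-1* was at 0.18, from -0.14 to 0.50, so both intervals then included 0. After removal of the trend of counts with exon length, with all libraries kept, the estimates were 0.11 for *rbx-1* and 0.08 for *elb-1*.

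Between untreated strains 0 of 7 passed, against 0.875% of all genes. All 7 estimates were negative, lower in degron worms, from -0.09 for *cul-1* to -0.39 for *elb-1* on the log2 scale, unadjusted p was under 0.05 for 2 (17.6% of all genes), and DESeq2 called *elb-1* (4.84%) where limma-voom called none (0.722%). Between auxin-treated strains 0 of 7 passed, against 1.05% of all genes, with 3 under 0.05 unadjusted (27.4% of all genes). DESeq2 called *skr-1*, *cul-1* and *elc-1* lower in treated degron worms (6.85%) and limma-voom called none (1.18%). The comparisons share groups, so their signs are not separate evidence. Each of the 35 intervals (95%) lay within a 2-fold change in either direction and 27 lay within 1.5-fold, the farthest bound being -0.87 on the log2 scale, for *elc-1* between treated strains.

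**Figure D2:**
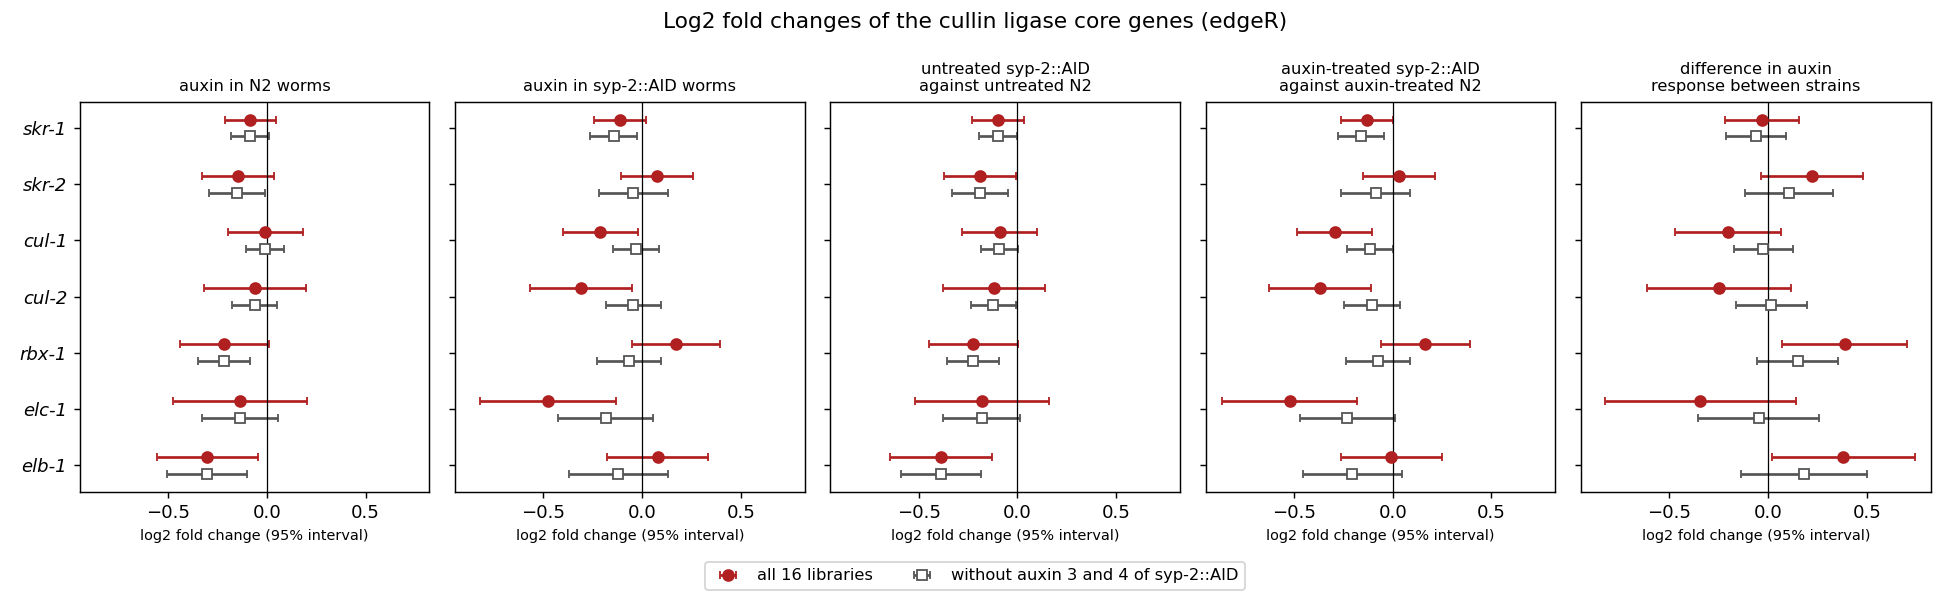
Log2 fold change (horizontal axis) with its 95% interval for the 7 genes in the 5 comparisons, from edgeR. Filled circles are from all 16 libraries and open squares leave out treated degron (*syp-2::AID*) replicates 3 and 4. With the pair left out, the 7 estimates for auxin in degron worms lie between -0.18 and -0.03.

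*skr-1* encodes the adaptor that joins F-box proteins, TIR1 among them, to CUL-1. In untreated N2 worms it was at 236.7, 225.3, 219.7 and 221.1 CPM in replicates 1 to 4, and with auxin at 213.9, 217.7, 215.0 and 205.6 CPM. In degron worms it was at 215.0, 203.2, 214.3 and 211.0 CPM without auxin and at 194.5, 186.6, 208.4 and 190.3 CPM with it. The 4 untreated N2 libraries were thus above every library of the other groups, and treated degron worms were lowest on average, overlapping the untreated group through replicate 3. The log2 fold change with auxin was -0.11 ± 0.06 (SE) in degron worms (adjusted p = 0.218, edgeR; exact two-sided permutation p = 0.0571) and -0.08 ± 0.06 in N2 worms (adjusted p = 0.514, edgeR; exact p = 0.0286, the smallest that 4 against 4 libraries allow). DESeq2 gave -0.16 in degron worms with an adjusted p of 0.0237, and -0.17 between treated strains with an adjusted p of 0.0195.

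*skr-2* encodes a close relative of SKR-1 and lies next to *skr-1*. Its transcript was at 221.3, 232.4, 215.5 and 186.6 CPM in untreated N2 worms and at 200.7, 188.9, 190.5 and 192.0 CPM with auxin. In degron worms it was at 196.5, 199.5, 182.2 and 172.3 CPM without auxin and at 188.6, 175.3, 218.7 and 207.4 CPM with it. All of these groups overlapped, and the highest treated degron libraries were replicates 3 and 4. Its log2 fold change with auxin was 0.07 in degron worms (adjusted p = 0.563, edgeR) and turned to -0.04 without that pair.

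Reads from such close copies could have been split between them, so their counts are uncertain, and they were also summed. The sum was at 439.6 ± 23.8 CPM (SD, n = 4) in untreated N2 worms, 406.1 ± 7.0 with auxin, 398.4 ± 11.9 in untreated and 392.4 ± 27.4 in treated degron worms. It passed the threshold in none of the 5 comparisons, with log2 fold changes from -0.14 between untreated strains to 0.09 for the difference in response, and adjusted p from 0.313 to 0.854 (edgeR; unadjusted p from 0.0644 to 0.763). The ratio of *skr-1* to *skr-2* counts was 0.99 ± 0.07 (SD, n = 4) in treated degron worms, 1.13 ± 0.09 in untreated ones and 1.10 ± 0.04 in treated N2 worms. The last of these did not overlap the first (exact permutation p = 0.0286), but over the 16 ratio tests made the adjusted p was 0.305.

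*cul-1* encodes the scaffold on which TIR1 works. In N2 worms its transcript was at 183.3, 185.3, 181.9 and 184.4 CPM without auxin and at 192.5, 176.2, 184.4 and 177.8 CPM with it. Untreated degron worms had 177.2, 175.2, 169.0 and 169.3 CPM and treated ones 171.3, 166.3, 135.6 and 123.3 CPM. The treated libraries fell into a pair near the untreated level and a pair, replicates 3 and 4, far below it. The log2 fold change was -0.21 ± 0.09 (SE) in degron worms (adjusted p = 0.136, edgeR; exact p = 0.0857) and -0.03 without replicates 3 and 4. In N2 worms it was -0.01 (adjusted p = 0.977) and turned to 0.0040 without auxin replicate 4. Treated strains did not overlap (-0.29, adjusted p = 0.0887, edgeR; exact p = 0.0286), which 11.6% of all genes also showed and 5.41% showed in this direction. Without treated degron replicates 3 and 4 the log2 fold change between treated strains was -0.11 (adjusted p = 0.456, edgeR).

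*rbx-1* encodes the RING subunit that CUL-1 and CUL-2 share. It was at 156.5, 154.3, 147.5 and 136.4 CPM in untreated N2 worms and at 124.2, 125.1, 126.7 and 136.2 CPM with auxin. Untreated degron worms had 142.1, 121.6, 122.7 and 123.4 CPM and treated ones 124.1, 119.1, 169.6 and 161.9 CPM. Treated replicates 3 and 4 were the highest of all 16 libraries for this gene, the opposite of their place for *cul-1*. The N2 groups were separate by a margin seen only in the decimals, between untreated replicate 4 and auxin replicate 4. The log2 fold change with auxin was 0.17 ± 0.11 (SE) in degron worms (adjusted p = 0.264, edgeR) and turned to -0.07 without replicates 3 and 4, while in N2 worms it was -0.22 ± 0.11 (adjusted p = 0.292, edgeR). The ratio of *rbx-1* to *cul-1* counts spanned 0.716 to 1.31 in treated degron worms, against 0.694 to 0.802 in untreated ones (exact permutation p = 0.314, adjusted p = 0.419 over 16 tests).

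On the other ligase, *cul-2* encodes the scaffold, which in the worm germline is known for roles in meiosis and the cell cycle. It was at 239.8, 249.8, 236.9 and 213.7 CPM in untreated N2 worms and at 228.3, 214.0, 227.7 and 231.0 CPM with auxin. In degron worms it was at 216.0, 224.0, 215.5 and 209.6 CPM without auxin and at 204.8, 214.0, 147.6 and 131.3 CPM with it. As for *cul-1*, treated replicates 3 and 4 lay below every other library. The log2 fold change in degron worms was -0.31 ± 0.12 (SE; adjusted p = 0.117, edgeR; exact p = 0.0571) and -0.05 without that pair. In the annotation an exon of *cul-2* overlaps *cyn-2* on the same strand, so some reads may be shared.

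*elc-1* encodes elongin C, the adaptor of CUL-2. It was at 24.8, 25.4, 26.8 and 26.3 CPM in untreated N2 worms and at 23.3, 22.1, 24.8 and 23.9 CPM with auxin. Untreated degron worms had 27.9, 21.6, 20.6 and 21.0 CPM and treated ones 19.8, 20.3, 14.7 and 10.5 CPM. All 4 treated degron libraries were below all untreated ones of the strain and below all treated N2 libraries. It was the 1 gene of the 7 whose groups did not overlap in degron worms, where 13.0% of all genes did not overlap and 5.27% were lower without overlap. The log2 fold change was -0.48 ± 0.16 (SE; adjusted p = 0.0798, edgeR; exact p = 0.0286), the largest in size of the 7. Without replicates 3 and 4 it was -0.18 (adjusted p = 0.644, edgeR). With only 2 treated libraries left, the groups of *elc-1* were still separate, as were those of *skr-1*. The share of all genes separate there was not counted. With all libraries DESeq2 put *elc-1* at -0.51 with an adjusted p of 0.0416.

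*elb-1* encodes elongin B, the ubiquitin-like partner of elongin C. It was at 69.0, 71.7, 64.4 and 59.2 CPM in untreated N2 worms and at 54.1, 52.1, 57.8 and 50.3 CPM with auxin. In degron worms it was at 61.2, 50.2, 49.8 and 41 CPM without auxin and at 47.1, 45.8, 62.1 and 58.4 CPM with it. Untreated N2 worms were above all auxin-treated N2 libraries, and above all untreated degron libraries but replicate 1. The log2 fold change with auxin in N2 worms was -0.30 ± 0.12 (SE; adjusted p = 0.185, edgeR; exact p = 0.0286), and between untreated strains -0.39 ± 0.12 (adjusted p = 0.119, edgeR; exact p = 0.0571). With auxin in degron worms it was 0.08 (adjusted p = 0.672) and turned to -0.12 without replicates 3 and 4, to -0.0026 without replicate 3 alone and to -0.010 without untreated replicate 4.

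In N2 worms the auxin and control groups did not overlap for *skr-1*, *rbx-1*, *elc-1* and *elb-1*, lower with auxin each time, where 8.41% of all genes were lower without overlap and 17.2% were separate in either direction. Between untreated strains they were separate for *skr-1* and *cul-1*, both lower in degron worms (7.53% of all genes were lower and 13.6% separate in either direction). These comparisons share the untreated N2 group. In the N2 libraries the summed level of 5 intestine markers, mostly yolk protein genes, was also lower with auxin, 58160 to 66297 CPM against 69058 to 80453 CPM. The yolk protein genes *vit-2*, *vit-5* and *vit-6* were at -0.29, -0.24 and -0.32 there on the log2 scale. *elt-2* and *ges-1* went the other way, at 0.32 and 0.29 (adjusted p = 0.388 and 0.106, edgeR). In degron worms the sum was 41339 to 60194 CPM with auxin and 65633 to 75594 CPM without. There *elt-2* was at -0.09 and *ges-1* at 0.16, and the yolk protein genes at -0.43, -0.35 and -0.41. The part of these markers in the results was not tested.

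The 2 treated degron libraries set apart above split the 7 genes by exon length. The short ones, *elb-1* (521 bases), *rbx-1* (602) and *skr-2* (758), were above the mean of the untreated libraries in both, by 0.15 to 0.42 on the log2 scale. *skr-1* (863 bases) differed by -0.02 and -0.15. The long ones were below it in both: *elc-1* (1819 bases) at -0.62 and -1.10, *cul-1* (2589) at -0.35 and -0.49 and *cul-2* (3151) at -0.55 and -0.72. The summed germline markers were also lowest in both. Of them *gld-1* was at -0.51 with auxin in degron worms, while the others ran from -0.09 for *glh-1* to 0.15 for *him-3*. The part of these markers in this was not tested. In replicates 1 and 2 all 7 genes were within 0.19 of the untreated mean, none of them above it by more than 0.01.

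**Figure D3:**
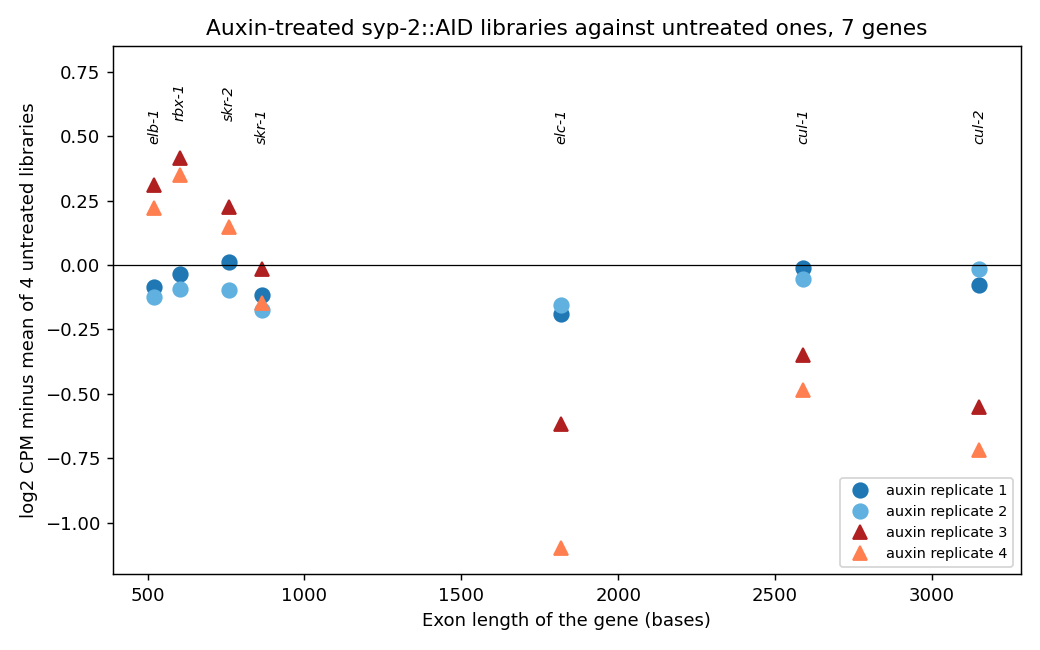
Exon length in bases (horizontal axis) against log2 CPM minus the mean of the 4 untreated libraries (vertical axis) for the 7 genes in the treated degron (*syp-2::AID*) worms. Circles, replicates 1 and 2, stay between -0.19 and 0.01. Triangles, replicates 3 and 4, run from 0.42 for *rbx-1* down to -1.10 for *elc-1*.

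Without this pair none of the 7 genes was called with auxin in degron worms (3.64% of all genes; smallest adjusted p = 0.265, for *skr-1*, edgeR), and all 7 estimates were negative. The pair also enters the estimate of spread that all comparisons share. When it was left out, *rbx-1* and *elb-1* were called lower with auxin in N2 worms (-0.22 with adjusted p = 0.0303 and -0.30 with adjusted p = 0.0462), in a fit that called 5.96% of all genes lower. They were also called when only the N2 libraries were fitted (-0.21 with adjusted p = 0.0406 and -0.30 with adjusted p = 0.0231; 11.1% of all genes). The same 2 genes were called lower in untreated degron than in untreated N2 worms (-0.22 with adjusted p = 0.0273 and -0.39 with adjusted p = 0.0175, edgeR; 7.27% of all genes lower, 12.4% in either direction). Neither the difference in response (0.00820% of all genes) nor the treated strains (0.435%) gave a call for any of the 7 in that fit. When all 16 libraries were fitted after removal of the trend of counts with exon length, all 7 were again negative with auxin in degron worms, and *skr-1* alone was called, at -0.30 ± 0.08 (SE; adjusted p = 0.0317; 8.47% of all genes). *elc-1* was then at -0.45 (adjusted p = 0.0639), and the other 4 comparisons gave no call for the 7 (8.22%, 0.0345%, 4.90% and 2.30% of all genes).

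Leaving out 1 of the remaining treated libraries acted the other way. With treated degron replicate 1 removed, *cul-1*, *cul-2* and *elc-1* were called lower with auxin (-0.28, -0.40 and -0.58; adjusted p = 0.0339, 0.0353 and 0.0263, edgeR), as were 23.1% of all genes in either direction. Without replicate 2 they were again called (-0.27, -0.42 and -0.60; adjusted p = 0.0435, 0.0196 and 0.0201), with 26.5% of all genes. Between treated strains the same 3 genes were called lower in each of these fits, which called 17.0% and 20.1% of all genes.

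The level of *rbx-1* went with the share of counts on ribosomal protein genes, a pattern noticed after the values were seen. The 6 libraries with the highest share, 13.2% to 18.8%, were also the 6 with the most *rbx-1*, at 142.1 to 169.6 CPM. In the other 10 libraries the share was at most 12.6% and *rbx-1* at most 136.4 CPM. The 6 were treated degron replicates 3 and 4, untreated degron replicate 1 and untreated N2 replicates 1, 2 and 3. They held 5 of the 6 highest values of *elb-1* and of *skr-2*, 4 of *elc-1*, and 3 of the 6 highest of *skr-1*, *cul-1* and *cul-2*. Yet treated degron replicates 3 and 4, with the highest share, had the lowest *elc-1*, *cul-1* and *cul-2* of all libraries. How many of all genes go with the share was not counted. All values come from the same libraries and share their scaling, and the part of this share in the results was not tested.

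**Figure D4:**
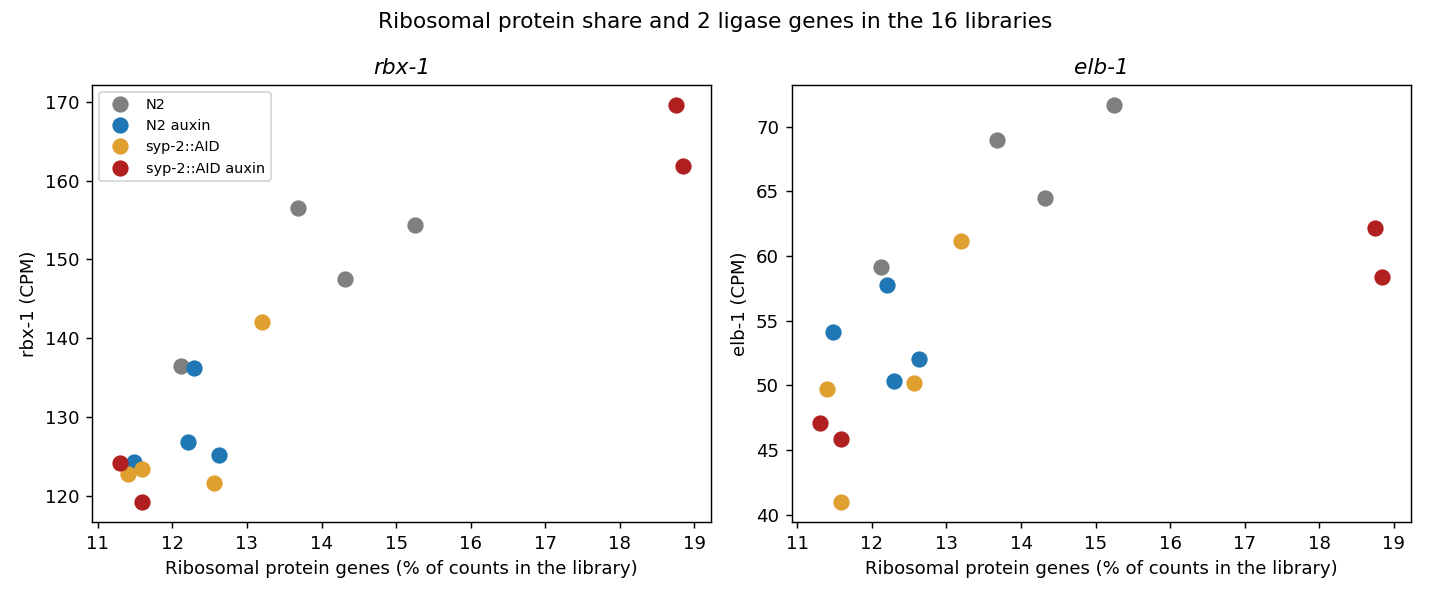
Share of a library's counts on ribosomal protein genes in percent (horizontal axis) against *rbx-1* and *elb-1* in CPM (vertical axes, not starting at 0), 1 point per library, coloured by group. The 6 libraries at 13.2% or more hold the 6 highest *rbx-1* levels and 5 of the 6 highest *elb-1* levels.

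Over the 16 libraries, with each gene's log2 CPM scaled to mean 0 and SD 1, the tested gene nearest to *cul-2* was *npp-9*, a nuclear pore gene (root mean square difference 0.147), and the nearest to *cul-1* was *top-2*, a topoisomerase gene (0.193). *elc-1* was nearest to *aakb-2*, which encodes a beta subunit of AMP-activated kinase (0.215), *rbx-1* to *pinn-4* (0.250), *skr-2* to W03C9.2 (0.310), *elb-1* to the alpha-tubulin gene *tba-2* (0.336) and *skr-1* to C41H7.3 (0.439). Among the 7 themselves the closest were the scaffolds *cul-1* and *cul-2* (0.263), ahead of *elc-1* and *cul-1* (0.318), but *cul-2* stood at rank 46 of 11775 genes by nearness to *cul-1*, and *cul-1* at rank 175 by nearness to *cul-2*. These 3 profiles share the low values of treated degron replicates 3 and 4. *skr-1* had no near profile in the set, its closest member being *elc-1* at 0.836.

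Expression of the TIR1 driver was read from the endogenous *sun-1* gene, which encodes a nuclear envelope protein of meiosis. It was at 107.9, 120.4, 120.0 and 106.9 CPM in untreated N2 worms and at 112.0, 106.9, 110.8 and 123.2 CPM with auxin. In degron worms it was at 91.1, 92.3, 84.1 and 85.1 CPM without auxin and at 93.6, 87.9, 79.5 and 68.7 CPM with it. All 8 degron libraries were below all 8 N2 libraries, and the share of all genes that did so was not counted. Between treated strains the log2 fold change was -0.46 ± 0.09 (SE; adjusted p = 0.0276, edgeR), where 1.05% of all genes were called. Between untreated strains it was -0.37 ± 0.09 (adjusted p = 0.0638, edgeR; 0.875% of all genes called). With treated degron replicates 3 and 4 removed, the adjusted p was 0.0798 between treated and 0.00348 between untreated strains (0.435% and 12.4% of all genes called). The call between treated strains was also lost without any 1 of the 4 auxin-treated N2 libraries or without treated degron replicate 3 or 4 alone (highest adjusted p = 0.0911). The call stood in 18 of 30 alternatives, and was also lost with the replicate block, with no scaling factors, with no filter beyond 1 count and with only the libraries compared (highest adjusted p = 0.188). Auxin gave -0.10 in degron worms (adjusted p = 0.468) and -0.01 in N2 worms (adjusted p = 0.980). Whether the transgene follows the endogenous gene was not measured.

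Of 19 further Skp1-related genes, 18 were in the table (*skr-11* was not analysed here) and 16 passed the filter on low counts. Among these 16, 3 rose in N2 worms on auxin plates and none fell. *skr-10* went from 3.9 ± 1.8 CPM (SD, n = 4) to 10.4 ± 3.3 (log2 fold change 1.39, adjusted p = 0.0462, edgeR), *skr-12* from 2.5 ± 1.2 to 6.0 ± 2.0 (1.23, adjusted p = 0.0435) and *skr-14* from 8.0 ± 2.0 to 14.2 ± 2.7 (0.82, adjusted p = 0.0410). The list's median was 0.43 against 0.01 over all genes, and 3.99% of all genes rose. DESeq2 called 6 of the 16 (7.79% of all genes in either direction) and limma-voom called 3 (4.82%). The replicate block left 1 call (500 over all genes) and upper-quartile factors none. These are low transcripts of closely related copies, *skr-7* to *skr-10* and *skr-12* to *skr-14*, so the share of each is uncertain. All 3 calls were lost without any 1 of auxin replicates 1 to 3 or untreated replicates 1 to 3 of N2 worms, or without the untreated degron replicate 3 (highest adjusted p = 0.167). Those of *skr-10* and *skr-12* were also lost without untreated degron replicate 2, and that of *skr-10* without treated degron replicate 1 or 3.

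With auxin in degron worms 0 of these 16 genes passed, against 7.20% of all genes. Of them 1 had an unadjusted p under 0.05 (30.0% of all genes), and DESeq2 (11.4%) and limma-voom (7.37%) called 0. There *skr-10*, *skr-12* and *skr-14* were at -0.46, -0.64 and -0.12. The difference between strains was -1.86, -1.87 and -0.94 for them (adjusted p = 0.220, 0.174 and 0.221, edgeR). DESeq2 called this difference for 3 of the 16, *skr-8*, *skr-10* and *skr-12* (1.11% of all genes), and limma-voom for none. With treated degron replicates 3 and 4 removed, *skr-8* and *skr-13*, named after their values were seen, joined the 3 in N2 worms, for 5 of 16 (12.9% of all genes in either direction). The summed level of 10 early embryo markers was also higher in N2 worms with auxin, at 7.7 to 11.5 CPM against 5.1 to 6.9 without it. Of these markers *med-1* was at 0 in every group and *med-2* in 3 of them, and in degron worms the sum was 6.8 to 11.5 CPM with auxin and 6.0 to 10.8 without. Of single markers in degron worms, *elt-7*, an intestinal transcription factor gene of this list, was called higher with auxin (0.98, adjusted p = 0.0306, edgeR), where *tbx-38* was at -1.18 (0.142) and *ceh-51* at -1.10 (0.158). The muscle myosin gene *myo-3* was called lower (-0.89, adjusted p = 0.0310). Both calls were lost without treated degron replicates 3 and 4 (0.57 and -0.56, adjusted p = 0.442 and 0.515). The part of embryos inside the worms in these results was not tested.

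Of the other pathway lists, the ubiquitin, E1 and E2 genes held 1 call. *ubc-3*, which encodes the worm relative of Cdc34, the enzyme that works with Skp1 and cullin complexes in yeast, was at 122.7 ± 10.2 CPM (SD, n = 4) in untreated N2 and 95.7 ± 6.4 CPM in untreated degron worms (log2 fold change -0.36, adjusted p = 0.0473, edgeR), where 0.195% of all genes fell. It stayed past the threshold in 13 of 30 alternatives, and in 5 of 16 fits that left out 1 library, those without untreated N2 replicate 4, untreated degron replicate 1 or treated degron replicate 1, 2 or 4 (highest adjusted p over those that lost it, 0.165). DESeq2 called 3 of the 5 genes, *ubc-3*, *ubq-1* and *let-70*, in this comparison (4.84% of all genes) and limma-voom called none (0.722%). With treated degron replicates 3 and 4 removed, 4 of the 5 genes were called lower in untreated degron worms, in a fit that called 7.27% of all genes lower: *ubc-3*, the E2 gene *let-70* and the ubiquitin genes *ubq-1* and *ubq-2*.

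The other cullins with *rbx-2* (5 tested), the F-box receptors of CUL-1 (8), the substrate receptors of CUL-2 (6) and the genes of the NEDD8 cycle, which switches cullins on and off (12), had no call in any of the 5 comparisons with edgeR or limma-voom. At an unadjusted p under 0.05 each comparison gave 0 to 2 genes in each of the first 3 lists and 3 to 5 genes of the NEDD8 cycle, where 17.6% to 30.0% of all genes were under it. DESeq2 called 2, *cul-6* between untreated strains (4.84% of all genes) and *rfl-1* with auxin in degron worms (11.4%). The most abundant of each were *cul-3*, scaffold of the BTB ligases, at -0.35 with auxin in degron worms (adjusted p = 0.165, edgeR), *cul-5* at 0.01 (0.935), the F-box genes *sel-10* at -0.27 (0.241) and *lin-23* at -0.20 (0.245), the CUL-2 receptors *zyg-11* at -0.25 (0.396) and *zer-1* at -0.28 (0.182), and *cand-1*, which exchanges F-box receptors, at -0.42 (0.152), with *dcn-1*, which helps to attach NEDD8, at -0.20 (0.262). Without replicates 3 and 4 these stood at -0.03, 0.18, 0.08, 0.04, 0.18, 0.02, -0.01 and 0.06. Other genes of the NEDD8 cycle had positive estimates with auxin in degron worms, with smaller adjusted p: *ned-8*, NEDD8 itself, at 0.44 (0.0742), *rfl-1*, part of its activating enzyme, at 0.29 (0.0576), and the COP9 signalosome genes *csn-1* at 0.24 (0.0881) and *csn-2* at 0.33 (0.124). These 4 were at 0.02, 0.19, 0.10 and 0.06 without the pair. The fit without the pair called 12.4% of all genes between untreated strains. There *cul-6* (1.16), *mec-15* (0.30) and *prom-1* (0.35) were called higher and *ned-8* (-0.17), *ubc-12* (-0.26) and *csn-4* (-0.24) lower in degron worms. With auxin in N2 worms that fit called 12.9% of all genes, among them *prom-1* higher (0.35) and *ubc-12* (-0.29) and *ubq-2* (-0.32) lower. Genes named for that fit or for DESeq2 alone, the 4 NEDD8 cycle genes with positive estimates and the single germline, intestine, embryo and muscle markers were chosen after their values were seen.

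**Figure D5:**
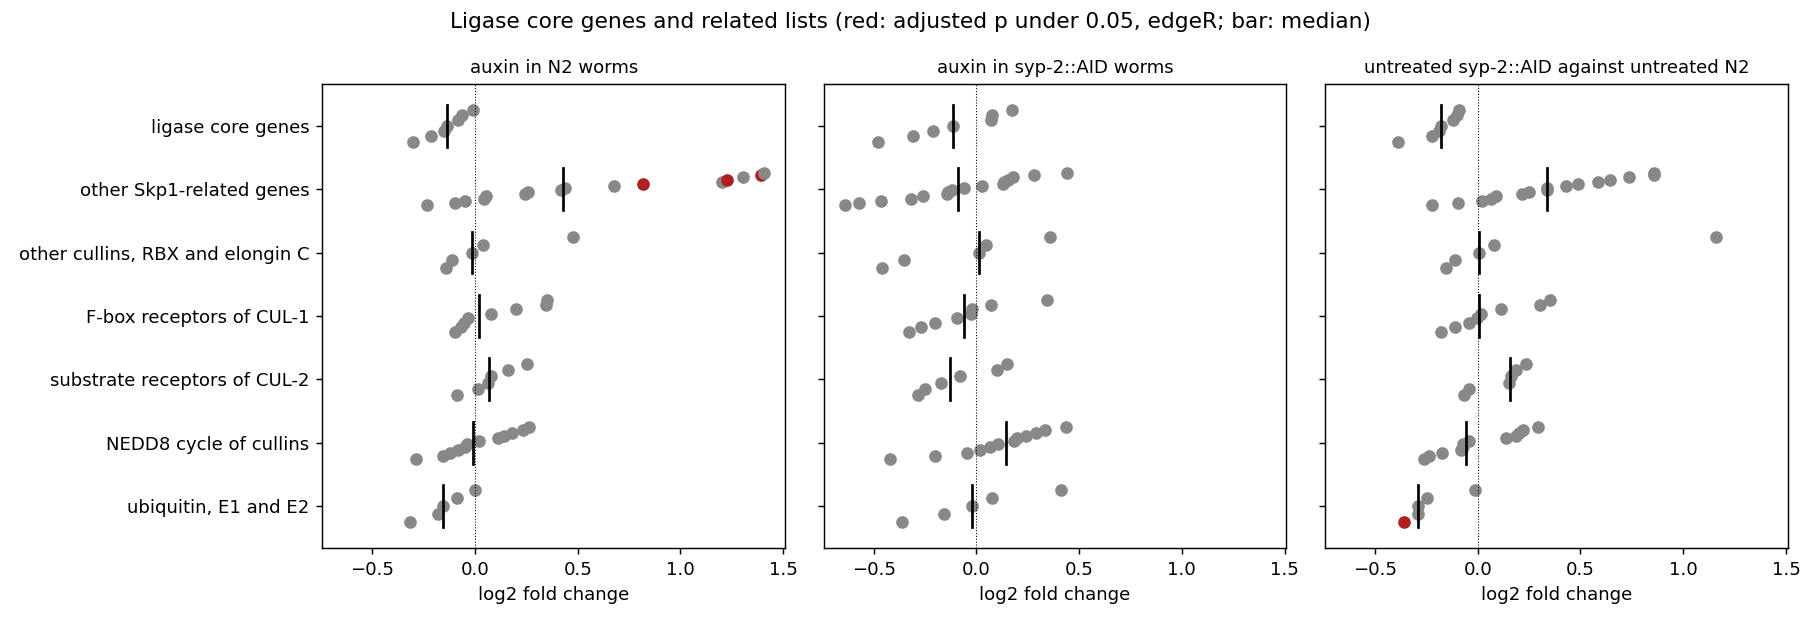
Log2 fold change (horizontal axis) of the 7 ligase genes and of 6 related lists in 3 comparisons. Each point is 1 gene, red where the adjusted p is under 0.05 (edgeR), and black bars give medians. Red points are 3 Skp1-related genes with auxin in N2 worms and *ubc-3* between untreated strains.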

How the data were processed

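The deposited values are whole-number counts of reads per gene, not normalised, 1 column per library. Per the labels, the authors used bcl2fastq 2.1.7, aligned reads to ce10 with TopHat2 2.0.11 and counted with featureCounts. No source used here gives the annotation or whether counting used strand.

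Counts were tested in R 4.3.3 with edgeR 4.0.16 (robust quasi-likelihood test, TMM factors, filter at 10 counts) over 16 libraries as 4 groups, with Benjamini-Hochberg adjustment over 11776 genes and a threshold of 0.05. The common biological coefficient of variation was 0.185. CPM uses the same factors. Exact permutation tests used CPM. Exon lengths came from a WBcel235 annotation (11579 tested genes), so no coordinates are given. Scripts were tested on simulated data.

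Alternatives were DESeq2 1.42.0, limma-voom (limma 3.58.1), other scalings and filters, fewer libraries, a replicate block, a length offset and a summed *skr-1* and *skr-2* row. The length offset without auxin replicates 3 and 4 was added after seeing the data. The genes and lists were chosen with earlier results of these data known. The text names the 7 genes, *sun-1*, *syp-2*, called genes of each pathway list or else its most abundant, and each gene's nearest profile. Replicates were compared, and no pair agreed within sampling noise.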

Additional observations from a re-analysis of the deposited data

Results flagged for a closer look

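Within the 4 untreated degron (*syp-2::AID*) libraries, replicate 1 lay far from the others for *rbx-1*, at 142.1 CPM against 121.6 to 123.4 CPM, a gap of 0.915 of the group's range. The same library lay far from the others for *elc-1*, at 27.9 CPM against 20.6 to 21.6 CPM, a gap of 0.864 of the range. Both are past Dixon's 95% limit for 4 samples, 28 groups of values were examined, and chance puts about 1 group in 20 past it. This library also had the highest *elb-1* level of its group, 61.2 CPM, and the highest ribosomal protein share, 13.2%. Without it, *elc-1* was at -0.37 with auxin in degron worms (adjusted p = 0.191, edgeR), *rbx-1* at 0.23 (0.217) and *elb-1* at 0.18 (0.324), and *elb-1* between untreated strains was at -0.49 (0.0505).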

How the results depend on the processing

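With all libraries, none of the 7 genes was called in any comparison, and the counts moved as follows. DESeq2 called 2 with auxin in degron worms, 1 between untreated strains and 3 between treated strains. Fitting only the libraries compared called 2 with auxin in N2 worms, and leaving out treated degron replicates 3 and 4 called 2 there and 2 between untreated strains. Removing the exon length trend called 1 with auxin in degron worms. Without that pair as well it called 1 in N2 worms and 2 between untreated strains, where 1575 and 1513 of all genes were called. Leaving out 1 library gave 0 to 3 calls with auxin in degron worms and between treated strains, and 0 in the other comparisons. Replicate numbers did not pair the samples (no correlation of deviations over 0.1, from -0.37 to 0.09). With the replicate block no gene of the 7 was called in any comparison, while the all-gene calls of 848, 640, 2, 103 and 124 became 656, 500, 0, 56 and 53, in the order of comparisons in the report. Over all settings the all-gene calls ran from 393 to 3170, 417 to 1577, 0 to 131, 26 to 1513 and 3 to 2405. With block and length trend removal together, 1 gene of the 7 was called with auxin in degron worms, 1 between untreated strains and 1 between treated strains. Over all genes that fit called 741, 262 and 189 there.

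Of 1033 values of the 7 genes under alternatives, 46 turned their sign. With auxin in degron worms these were, without replicates 3 and 4, *skr-2* (-0.044), *rbx-1* (-0.067) and *elb-1* (-0.12), with the length trend removed -0.16, -0.12 and -0.23, with the block too -0.16, -0.12 and -0.23, and with the length trend removed and without the pair -0.038, -0.056 and -0.11. Leaving out 1 library put *elb-1* between -0.010 and 0.18 and the summed *skr* row between -0.065 and 0.015.

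In N2 worms no scaling factors gave *skr-1* 0.059, *cul-1* 0.13, *cul-2* 0.082, *elc-1* 0.0052 and the summed row 0.029, where the median of all genes moved to 0.15. *cul-1* was at 0.0025 with upper-quartile factors, at 0.010 with 10 counts in every library and between -0.034 and 0.0040 with 1 library left out. Between untreated strains no factors gave *skr-1* 0.031, *cul-1* 0.038 and *cul-2* 0.0099, with the all-gene median at 0.15.

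For the difference in response, *cul-2* was at 0.016 without replicates 3 and 4, 0.013 with the length trend removed, 0.0091 with the block too and 0.054 with the length trend removed and without the pair, where *cul-1* was at 0.0098. The summed row was at -0.080 with no factors and -0.088 with the length trend removed. Between treated strains *skr-2* was at -0.011 with RLE factors and in DESeq2, -0.013 with no factors, -0.015 with no filter beyond 1 count and -0.010 with only the libraries compared. Without the pair *skr-2* and *rbx-1* were at -0.085 and -0.075, with the length trend removed at -0.20 and -0.13, with the block too at -0.21 and -0.14, and with both the length trend and the pair removed at -0.084 and -0.071. Leaving out 1 library put *skr-2* between -0.020 and 0.086 and *elb-1* between -0.088 and 0.060. The cause of these moves was not tested. *elc-1* had the fewest counts of the 7, 151 to 461 per library.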
